A study of Mus musculus with 2 samples.

Results

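The cKit-high CD71-low Ter119-low progenitors of mouse fetal liver are cells that carry the receptor cKit on their surface and little of the transferrin receptor CD71 and of the mature erythroid antigen Ter119. They were chosen by limits on antibody counts and on a few transcripts, and 693 of the 7863 deposited cells met all limits. Kept cells had 300 to 5000 detected genes and at most 9% mitochondrial UMIs (unique molecular identifiers, each counting 1 captured transcript), which 7355 cells passed. Among these, the summed count of 5 lineage antibodies (CD11b, CD41, Ly6G/6C, CD45R and CD3e) was at most 95 and Ter119 at most 24, CD71 was under a low limit, and cKit was at least 200. Fewer than 5 UMIs of the platelet gene Pf4, fewer than 3 of the early progenitor gene Plac8 and fewer than 10 of the granule genes Mpo, Elane, Prtn3 and Ctsg together were also required.

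The cells came from livers of e13.5 C57BL/6 embryos, untreated and pooled, and Ter119-positive cells had been partly removed and then partly added back, so shares of cells below are not shares of the liver. The experiment measured transcripts and surface antigens in the same cells (CITE-seq), as 1 cDNA library and 1 antibody library whose 7863 cell barcodes were identical. With 1 library there was no replicate error. No test was made, and every interval given is an exact 95% interval that covers counting error only.

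In the fetal liver, red cells arise from progenitors that depend first on stem cell factor, the ligand of cKit, and later on erythropoietin. As these progenitors commit, they raise CD71 to import iron for heme, and Ter119 appears only on maturing erythroblasts. The switch from the transcription factor Gata2 to its relative Gata1 at shared sites is a well known step of this commitment.

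Each antibody was read through a short DNA barcode joined to it. The barcodes of the 3 antigens that name the population are shown because all later groups rest on their counts. They are printed 5′ to 3′ in lower case, with no base singled out.
cKit: aagcgcttggca
CD71: cgaagaaggagt
Ter119: gaggcgattgat

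The 693 cells held 6383366 UMIs, with 2511 to 27105 UMIs per cell, a median of 8291 UMIs and a median of 2751 genes. The cKit antibody count ran from 200 to 1736 with a median of 442, CD71 from 6 up to its limit with a median of 91, and Ter119 from 0 to 20 with a median of 5 and a count in 97.8% of the cells. Counts of CD44, an adhesion receptor that the rule did not use, ran from 36 to 712 with a median of 217. The control IgG antibody gave a count in 2.31% of the cells and never more than 2. In hepatocyte-rich cells, defined below, CD44 had a median of 17 and quartiles of 9 and 34, with single cells up to 223. Their CD71 count had a median of 72 and quartiles of 42 and 124.5, so the CD71 counts overlapped. Their Ter119, held to the same limit, had a median of 6 and a count in 93.9% of the cells. The Ter119 counts of the 693 cells were thus not above that level. Across the 693 cells, cKit and CD44 counts were related (Spearman's rho 0.73), whereas rho was 0.05 for cKit and CD71. Since the rule limits both cKit and CD71, these values hold within the limits and are shaped by them. They are descriptions over cells of 1 library that share their depth, since the UMIs per cell were also related to cKit (rho 0.49), to CD44 (rho 0.45) and to CD71 (rho 0.49).

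**Figure D1:**
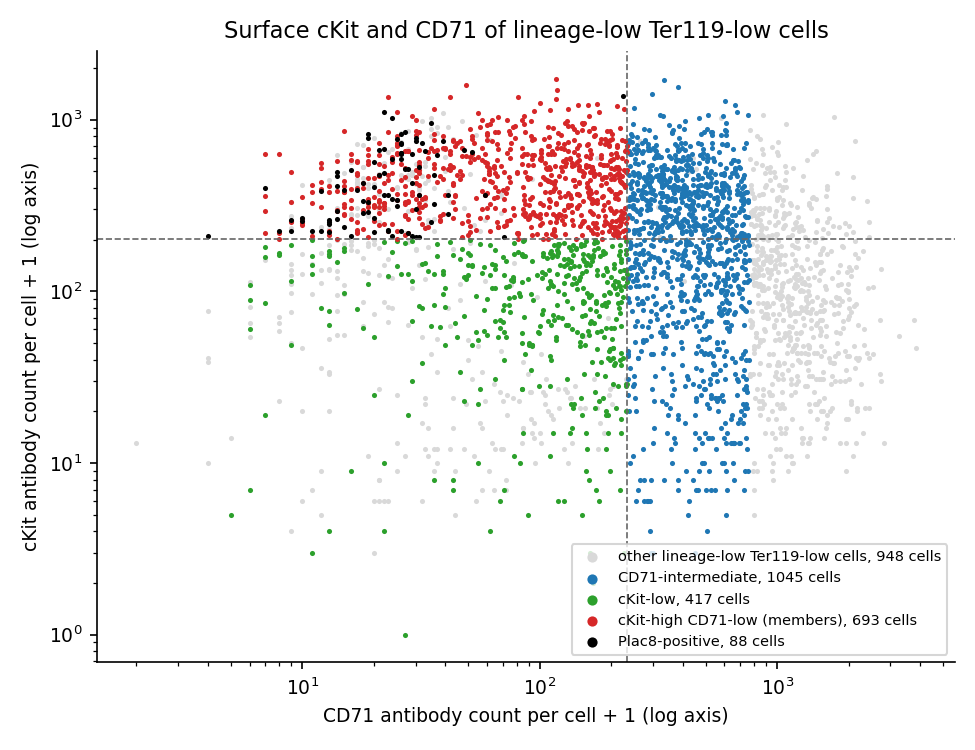
Antibody counts per cell plus 1 of CD71 (x axis) and cKit (y axis), both on log axes, for lineage-low Ter119-low cells, with dashed lines at the limits on CD71 and cKit. The 693 cKit-high CD71-low cells fill the upper left field without a gap at either line, and the 88 Plac8-positive cells lie mostly at its lowest CD71 counts.

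The levels below are UMIs of a gene per 1000000 UMIs of all cells of a population together (CPM). The same tissue gave the populations for comparison. CD71-intermediate cells (1045 cells, median 10283 UMIs) met the same lineage, Ter119 and transcript limits but had CD71 counts above the limit and up to 761, whatever their cKit. Plac8-positive cells (88 cells, median 5912.5 UMIs) differed from the cKit-high CD71-low cells by 3 or more Plac8 UMIs, and cKit-low cells (417 cells, median 4358 UMIs) by a cKit count under 200 and by leaving out cells with at least 5% hepatocyte UMIs. CD71-high cells (S1, 613 cells) had more CD71 than the CD71-intermediate cells, granule-gene cells (112 cells) had cKit-high CD71-low surfaces with 10 or more granule UMIs, and hepatocyte-rich cells (114 cells) had at least 5% hepatocyte UMIs. A gene was called higher or lower where the log2 ratio of CPM plus 10 was at least 1 in size, among genes with at least 50 UMIs in both populations together.

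The 5 genes that marked these cells were all detected, but only 2 of them were highest here. Gm15915, a long noncoding RNA gene (GRCm38.p6, chromosome 10, 93674218 to 93683322, ENSMUSG00000085723), stood at 298 CPM (284 to 311). It stood at 112.8 CPM in cKit-low cells, 88.9 in CD71-intermediate cells, 25.4 in S1 cells, 24.3 in Plac8-positive cells and 10.3 in granule-gene cells. Hdac7, a class IIa histone deacetylase (chromosome 15, 97792661 to 97844502), stood at 64.4 CPM (58.3 to 70.9), against 34.7 in Plac8-positive cells, 30.7 in cKit-low cells and 30.5 in CD71-intermediate cells. The intervals of neither gene met that of any of these other populations.

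Kit, which encodes the cKit receptor itself (chromosome 5, 75574987 to 75656722), stood at 73.9 CPM (67.4 to 80.9). Its level was 73.0 (52.6 to 98.6) in Plac8-positive cells and 96.5 (78.0 to 118) in granule-gene cells, and both intervals overlapped that of the cKit-high CD71-low cells. Myb, a transcription factor that keeps progenitors dividing (chromosome 10, 21124930 to 21160984), stood at 164 CPM (154 to 174), against 198 (163 to 238) in Plac8-positive cells and 190 (164 to 219) in granule-gene cells, and these 3 intervals overlapped. Gata2, the progenitor GATA factor (chromosome 6, 88193891 to 88207032), stood at 33.5 CPM (29.2 to 38.3), below the 158 of Plac8-positive cells and the 56.5 of granule-gene cells, and above the 12.7 of cKit-low cells and the 2.04 of CD71-intermediate cells. High Gata2, Myb and Kit were thus shared with, or higher in, the neighbouring progenitors, and Gm15915 and Hdac7 were highest in the cKit-high CD71-low cells among the populations compared.

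**Figure D2:**
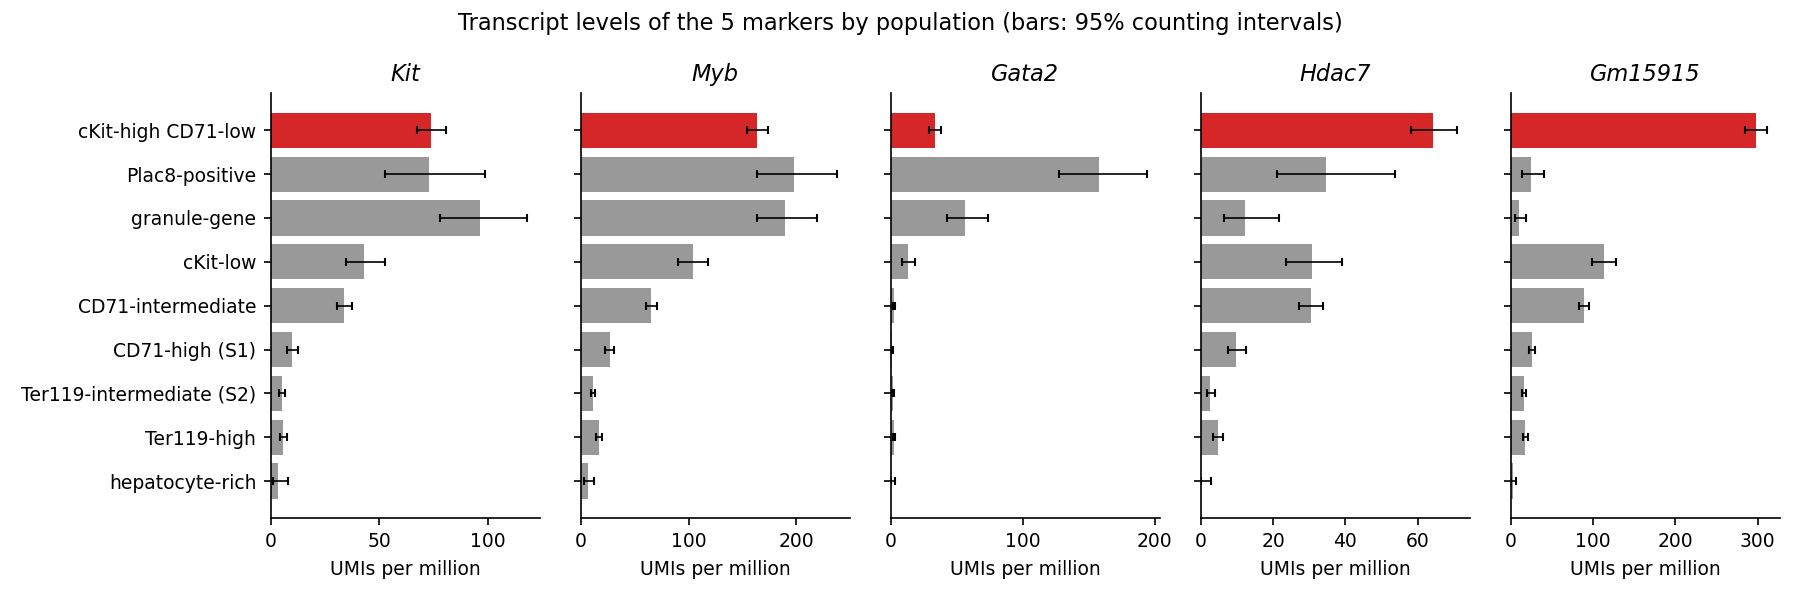
Levels of the 5 marker genes (x axes, CPM, starting at 0) in 9 populations, with cKit-high CD71-low cells in red and 95% counting intervals as error bars. Gm15915 at 298 and Hdac7 at 64.4 were highest in the cKit-high CD71-low cells, whereas Gata2 was highest in the Plac8-positive cells at 158.

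In single cells thinned to 2000 UMIs, a depth every cell reached, 39.4% of the 693 cells had a Gm15915 UMI (35.7% to 43.1%). The share was 29.0% for Myb, 14.3% for Kit, 11.5% for Hdac7 and 8.80% for Gata2. Hepatocyte-rich cells, which should lack these transcripts, gave 0.877% for Gm15915, Myb and Kit (1 of 114 cells each). For Hdac7 and Gata2 they gave 0 of 114 cells, with an upper interval bound of 3.18%. Median depth before thinning was 8291 UMIs in the cKit-high CD71-low cells and 11977.5 in the hepatocyte-rich cells. All 5 shares lay above this background.

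Cells just inside and just outside the limits were set side by side. Within 50 counts above the cKit limit, Kit stood at 84.6 CPM (61.4 to 114) in 87 cells, and within 50 counts below it at 68.9 CPM (48.2 to 95.3) in 94 cells, with intervals that overlapped. Within 50 counts of the CD71 limit, Gm15915 stood at 168 CPM inside (108 cells) and 170 CPM outside (87 cells). At the Plac8 limit the 30 cells with 2 Plac8 UMIs had 256 CPM of Klf1 and 235 CPM of Gm15915, and the 10 cells with 3 Plac8 UMIs had no UMI of either gene. The early progenitor gene Cd34 rose gradually instead, at 10.2, 42.0 and 150 CPM (106 to 207) in cells with 0, 1 and 2 Plac8 UMIs. It stood at 275 CPM (170 to 421) in those with 3, so the intervals overlapped at the limit. The Pf4 limit removed no cell, the granule limit removed 112 and the Plac8 limit 193, of which 105 were removed by both.

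The comparison with the CD71-intermediate cells asks what precedes the rise of CD71. Of 8931 genes, 98 were higher (1.1%) and 41 were lower (0.459%) in the cKit-high CD71-low cells, and the median log2 ratio over all tested genes was 0.04. The CD71-intermediate cells had a median cKit count of 218, and against those with a count of 200 or more, 83 genes were higher and 15 lower. Vim led the 10 highest genes. This gene, which encodes the intermediate filament vimentin, stood at 104 CPM against 5.85 (17.8-fold, 13.7 to 23.4). Gmfg, a regulator of branched actin, stood at 111 against 7.89 CPM (14.0-fold, 11.2 to 17.8). Arpc1b, a subunit of the actin-branching Arp2/3 complex, stood at 461 against 104 CPM (4.46-fold, 4.16 to 4.78). Cotl1, another actin-binding protein, stood at 85.7 against 13.2 CPM. Apoe, which encodes the lipid carrier apolipoprotein E, stood at 453 against 77.3 CPM (5.87-fold, 5.43 to 6.35). Cmtm7, Ramp1, Ptprcap, Limd2 and Ptpn18 completed the 10 highest, with Ptprcap, which encodes a partner of the CD45 phosphatase, at 164 against 26.1 CPM. Ramp1 and Ptpn18 had under 50 UMIs in the CD71-intermediate cells.

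The 10 lowest genes included Hemgn, Epb42 and Trim10 of the late erythroid list and Rhd and Cldn13 of the early one. Hemgn, a nuclear protein of erythroid cells, stood at 64.9 CPM against 222 in CD71-intermediate cells, Epb42, band 4.2 of the membrane skeleton, at 8.15 against 42.4, Rhd, the blood group gene, at 83.2 against 257, and Trim10, a gene of terminal erythroid differentiation, at 20.7 against 98.9. Rgcc, a regulator of the cell cycle, was the most abundant of them at 284 against 867 CPM (0.327-fold, 0.311 to 0.344). Cldn13, a claudin of erythroid cells, stood at 59.1 against 190 CPM. Acp5, Ift140 and Mrap were also among them, and Ift140 had under 50 UMIs in the cKit-high CD71-low cells.

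Members of the gene lists were also compared between the cKit-high CD71-low and the CD71-intermediate cells. Of 26 progenitor transcription factors 21 could be tested, of which 8 were higher and 1 was lower (median log2 ratio 0.72), beside 1.1% and 0.459% of all tested genes. Of these 8, 5 had under 50 UMIs in the CD71-intermediate cells and so passed the filter only through the cells where they were high. Nothing is therefore read from the count or the median. Hhex, a homeobox factor, stood at 71.3 against 11.5 CPM (6.19-fold, 5.06 to 7.61), Fli1, an ETS factor of blood stem cells and megakaryocytes, at 22.7 against 1.11, Meis1, a partner of HOX proteins, at 16.8 against 2.69, and Spi1, the myeloid factor PU.1, at 22.4 against 5.11. Ikzf2, Mycn, Gata2 and Myb were also higher. Myb was not called against CD71-intermediate cells with a cKit count of 200 or more, at a log2 ratio of 0.97. Sox6, which acts in erythroid maturation, was lower at 4.07 against 20.9 CPM, with under 50 UMIs in the cKit-high CD71-low cells. The most abundant member, Lmo2, an adaptor of the GATA and TAL1 complex, stood at 442 against 406 CPM and was not called.

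The 21 stem and multipotent progenitor genes summed to 269 against 58.4 CPM. Only 10 of them passed the filter, and the 6 that were called higher all had under 50 UMIs in the CD71-intermediate cells, so that count leans upward and nothing is read from it. Cd48, a surface protein of multipotent progenitors, stood at 37.6 against 3.25 CPM and Hmga2, a fetal chromatin protein, at 34.2 against 3.71. Among 18 early erythroid genes, 1 was higher and 3 were lower (median -0.65). The higher gene was Car1, carbonic anhydrase 1, at 106 against 31.9 CPM (3.32-fold), whereas its relative Car2 stood at 1125 against 2206 CPM. Hebp1, a heme-binding protein, Rhd and Cldn13 were lower. Of 17 late erythroid genes, 11 were lower and none higher (median -1.07). Over all tested genes 1.1% were higher and 0.459% lower.

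None of 11 erythroid transcription factors was called against the CD71-intermediate cells (median -0.11), where 1.1% of all tested genes were called higher and 0.459% lower, so a count of 0 in a list of this size is near the background. Gata1, the master factor of red cells, stood at 172 against 187 CPM (0.922-fold, 0.856 to 0.993), Klf1, the activator of globin and other red cell genes, at 376 against 541 CPM (0.695-fold, 0.662 to 0.729), and Tal1 at 108 against 132 CPM. Of the receptors, Epor, the erythropoietin receptor, stood at 111 against 150 CPM (0.742-fold, 0.678 to 0.811) and Kit at 73.9 against 33.7 (2.19-fold, 1.91 to 2.52), just short of the limit with a log2 ratio of 0.94. None of 8 tested receptor genes was called. Of 20 Kit signalling genes, 2 were higher and none lower. These were Dok2, an adaptor that damps receptor signals, at 31.0 against 2.04 CPM, and Ptpn6, a phosphatase that dampens them as well. Dok2 had under 50 UMIs in the CD71-intermediate cells and passed the filter only through the cells where it was high. Nothing is read from this count.

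Among the genes whose products the antibodies bind, Cd44 stood at 56.9 against 47.5 CPM, Tfrc at 99.2 against 169, Itga2b, the gene of CD41, at 14.1 against 5.39, and Ptprc, the gene of CD45, at 5.33 against 0.650.

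The lists for growth and division held no called gene against the CD71-intermediate cells, beside the 1.1% of all tested genes called higher and the 0.459% called lower, and with shares this low nothing particular to these lists can be read from it. Of 37 S phase genes and 49 genes of G2 and mitosis, none was called in either direction, with median log2 ratios of -0.14 and -0.09. The S phase genes summed to 4794 against 5713 CPM and the G2 and mitosis genes to 10173 against 11008 CPM. None of 25 ribosome biogenesis genes was called (median 0.10), nor any of 12 cyclins and CDK inhibitors. Cdk6, a kinase that opens the cell cycle in blood progenitors, stood at 282 against 146 CPM (log2 ratio 0.90). Among the 9 tested histone deacetylases none was called. Hdac7 was the nearest with a log2 ratio of 0.88, while Hdac2, the most abundant, stood at 201 against 180 CPM.

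The Plac8-positive cells met the same limits on surface antigens, but within these limits their surfaces differed. Their median CD71 count was 22.5 against 91 in the cKit-high CD71-low cells, and their median CD11b count was 26 against 5. Of 7759 genes, 330 were higher (4.25%) and 333 lower (4.29%) in the cKit-high CD71-low cells, with a median log2 ratio of 0.08 over all tested genes. Plac8 and the granule genes belong to the rule, so their values against these cells describe the limit alone. The granulocyte and monocyte list, which holds them, summed to 220 against 3335 CPM. Its genes Lyz2, Tyrobp, Fcer1g and Coro1a, which the rule does not limit, were lower too. The mast cell, basophil and eosinophil list summed to 241 against 938 and the lymphoid list to 23.0 against 316. The macrophage (39.0 against 27.8) and hepatocyte lists (396 against 292) went the other way. All 18 early erythroid genes were higher, with a median log2 ratio above 2, and 15 of them had under 50 UMIs in the 88 Plac8-positive cells. Epor stood at 111 against 10.4 CPM (10.7-fold, 4.89 to 29.2) and Hebp1 at 241 against 24.3. Of the 10 highest genes, Gm15915 led with 298 against 24.3 CPM (12.2-fold, 7.28 to 22.4). It was followed by Smim1, a small membrane protein of the Vel blood group, at 218 against 19.1 CPM. Cpox, an enzyme of heme synthesis, at 362 against 48.6, Blvrb, biliverdin reductase B, at 447 against 62.5, and Mt1, a metallothionein, at 678 against 104 were also among them, with Ermap, Cited4 and Tnfaip2. Myh10, a nonmuscle myosin, had 371 UMIs in the cKit-high CD71-low cells and none in the 88 Plac8-positive cells. All but Mt1 of the 10 highest genes had under 50 UMIs in the Plac8-positive cells. They passed the filter only through the cells where they were high, so nothing is read from their order.

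Of the 11 erythroid transcription factors, 4 were higher than in Plac8-positive cells and none lower (median 0.63), all 4 with under 50 UMIs there. Klf1 stood at 376 against 59.1 CPM (6.37-fold, 4.54 to 9.22), Gata1 at 172 against 38.2 (4.50-fold, 2.96 to 7.21) and Tal1 at 108 against 29.5, and the repressor Gfi1b was the other. In contrast, 11 of 21 progenitor transcription factors were lower and 2 higher (median -1.09), beside 4.29% and 4.25% of all tested genes. The 2 had under 50 UMIs in the Plac8-positive cells, and 1 of the 11 had under 50 in the cKit-high CD71-low cells. Spi1 stood at 22.4 against 229 CPM, and Zfpm1, the GATA1 partner FOG1, was higher at 94.6 against 10.4. The 21 stem and multipotent progenitor genes summed to 269 against 1860 CPM. Of the 12 that passed the filter 11 were lower and none higher (median -1.92), beside 4.29% of all tested genes called lower. Of the 11, 3 had under 50 UMIs in the cKit-high CD71-low cells. Among the 11 was Cd34, a surface sialomucin of early progenitors, at 21.3 against 302 CPM (0.0705-fold, 0.0559 to 0.0887). Lsp1, Ifitm1, Emb, Tyrobp, Coro1a, BC035044 and Ccl9 were others of the 10 lowest, and Ccl9 had under 50 UMIs in the cKit-high CD71-low cells. None of the 49 G2 and mitosis genes was called. Of 37 S phase genes Ccne2, a cyclin of S phase entry, was higher, and of 9 tested cyclins and CDK inhibitors Ccne1 and Ccne2 were higher and Ccnd1 lower. Ccne1 stood at 194 against 41.7 CPM and Ccnd1 at 6.74 against 46.9. Of 25 ribosome biogenesis genes 2 were higher (median 0.63), beside 4.25% of all tested genes. All of these called cyclins and ribosome biogenesis genes had under 50 UMIs in the population where they were lower. These levels of the 88 cells rest on 575666 UMIs, so their intervals are wide.

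**Figure D3:**
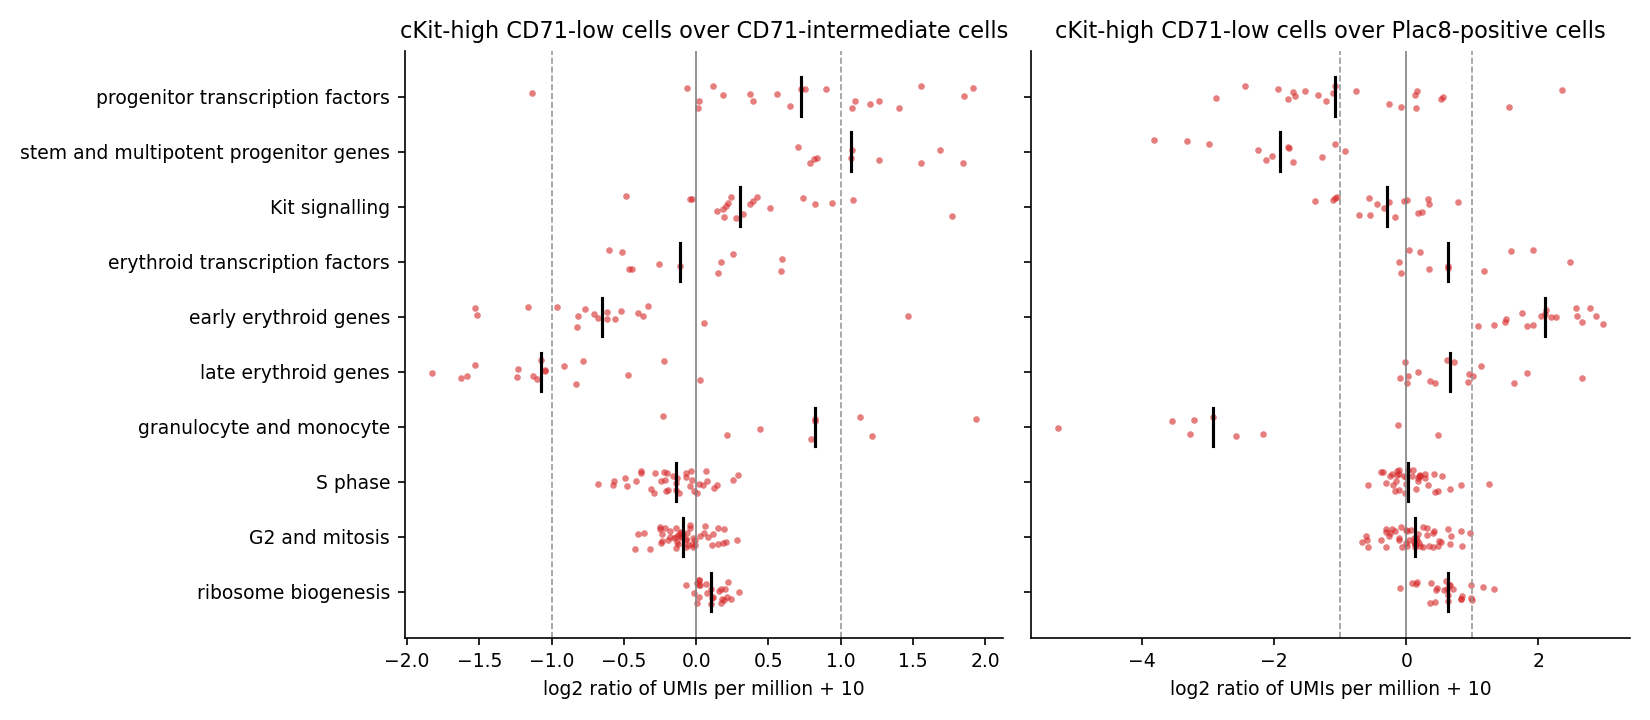
Log2 ratios of CPM plus 10 (x axis) of single genes (points) in 10 gene lists, for cKit-high CD71-low cells over CD71-intermediate cells (left) and over Plac8-positive cells (right), with black bars at list medians and dashed lines at the limit of 1. Stem genes are drawn only where they passed the filter, which on the left several did only through the cells where they were high, so their medians are not compared. Early erythroid genes have medians of -0.65 and above 2, and S phase and G2 and mitosis genes lie within the limit but for Ccne2 on the right.

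Fewest genes were called against the cKit-low cells. Of 8021 genes, 32 were higher (0.399%) and 44 lower (0.549%) in the cKit-high CD71-low cells, with a median log2 ratio of 0.04. Gm15915 was higher at 298 against 113 CPM (2.64-fold, 2.30 to 3.03), as were Car1, Cd48, Ptprcap, Cmtm7, Ramp1, Gmfg and Ass1, an enzyme of arginine synthesis at 30.9 against 6.14. S100a10, Spns2 and Ptpn18 were also among the 10 highest. Of these 10, Ramp1, Ass1, Cd48, Spns2 and Ptpn18 had under 50 UMIs in the cKit-low cells. Kit stood at 73.9 against 43.0 CPM (1.72-fold, 1.37 to 2.18), a log2 ratio of 0.66 between cells whose median cKit antibody counts were 442 and 93. The lowest genes included Hbb-y, Hba-x and Hbb-bh1, the embryonic globins, with Hbb-y at 143 against 4177 CPM. The imprinted genes Cdkn1c, Meg3 and Mest, the collagen chaperone Serpinh1 and the growth factor gene Ptn were others, with Trim10 and Rpgrip1. Hba-x, Cdkn1c, Meg3, Mest, Serpinh1 and Ptn had under 50 UMIs in the cKit-high CD71-low cells. The sums of some marker lists of other cell types were higher in the cKit-low cells. There the macrophage list summed to 182 CPM against 39.0, the stellate and mesenchymal list to 157 against 10.3 and the hepatocyte list to 565 against 396. None of the 11 tested hepatocyte genes was called, and that list summed to 670 CPM in CD71-intermediate cells and 951 in S1 cells. Other lists went the other way. The megakaryocyte list summed to 145 against 207 CPM and the mast cell, basophil and eosinophil list to 107 against 241. Sums were also lower for the lymphoid (13.2 against 23.0), granulocyte and monocyte (203 against 220) and endothelial lists (175 against 191). Their part in the result was not tested.

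Within the 693 cells, many transcript levels changed with the CD71 antibody count. Tertiles of 231 cells each had CD71 counts of 6 to 52, 52 to 131 and 131 up to the limit, and their median depths were 5591, 9394 and 12182 UMIs. Of 6561 genes, 85 were higher (1.3%) and 212 lower (3.23%) in the highest tertile than in the lowest, with a median log2 ratio of 0.05 over all tested genes. Gata2 stood at 96.7, 22.6 and 7.55 CPM from the lowest to the highest tertile, a fall of 12.8-fold (7.99 to 21.6). Vim went from 265 to 88.7 to 27.2 CPM, Gmfg from 331 to 68.3 to 23.8, Apoe from 1129 to 377 to 140, and Car1 from 206 to 107 to 48.7. Cd34 stood at 87.9 CPM in the lowest tertile and at 0.887 and 1.51 in the others. Coro1a, an actin-binding coronin of white cells, stood at 164, 15.1 and 5.29 CPM, and Limd2, Cd48, Ctla2a, Ramp1 and Psmb8, a subunit of the immunoproteasome, were with Coro1a, Cd34, Gmfg, Apoe and Vim the 10 that fell most. All but Gmfg, Apoe and Vim of these 10 had under 50 UMIs in the highest tertile, so nothing is read from their order.

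Some erythroid genes rose along the tertiles. Of 18 early erythroid genes, 10 were higher and 1 lower in the highest tertile, the lower being Car1, beside 1.3% and 3.23% of all tested genes. Of 13 late erythroid genes 3 were higher and none lower, and of 11 erythroid transcription factors Klf1 and Klf3 were higher and Foxo3 lower. Of these higher genes, 3 of the 10, 1 of the 3 and 1 of the 2 had under 50 UMIs in the lowest tertile. None of the 4 adult globin genes was called. Klf1 stood at 208, 392 and 457 CPM (2.19-fold from the lowest to the highest tertile, 1.93 to 2.49), Epor at 57.5, 117 and 137 (2.38-fold, 1.87 to 3.05) and Hebp1 at 71.0, 258 and 321. Tfrc, the gene of CD71 itself, stood at 44.6, 105 and 125 CPM (2.79-fold, 2.14 to 3.70), while the median CD71 antibody count went from 24 to 91 to 181. Rgcc stood at 62.2, 244 and 441 CPM, Cldn13 at 11.5, 50.1 and 93.2 and Cd24a, a surface glycoprotein, at 114 in the lowest and 469 in the highest tertile. Nxpe2, Tmem56, Arhgdig, Sphk1, Pklr and Slc39a8 completed the 10 genes that rose most, Pklr encoding the pyruvate kinase of red cells and Sphk1 a sphingosine kinase. All but Rgcc, Hebp1 and Cd24a of these 10 had under 50 UMIs in the lowest tertile, so nothing is read from their order. The 21 stem and multipotent progenitor genes summed to 804, 144 and 77.4 CPM from the lowest to the highest tertile. Of these, 8 passed the filter and were lower, 7 of them with under 50 UMIs in the highest tertile, and 9 of 20 tested progenitor transcription factors were lower too, 6 of them likewise. Beside them 3.23% of all tested genes were lower, and as most of these members passed only through the tertile where they were high, nothing is read from the counts.

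Several marker lists of other cell types fell along CD71 as well. From the lowest to the highest tertile the granulocyte and monocyte list summed to 610, 116 and 91.7 CPM, and 7 of its 8 tested genes were lower, all 7 with under 50 UMIs in the highest tertile. The rule itself limits Mpo, Prtn3 and Plac8 among them. The megakaryocyte list summed to 437, 171 and 110 CPM, with 5 of 6 tested genes lower, 3 of them with under 50 UMIs in the highest tertile. Since such genes passed the filter only through the tertile where they were high, nothing is read from these counts beside the 3.23% of all tested genes called lower. The mast cell, basophil and eosinophil list summed to 566, 183 and 110 CPM, and the lymphoid list, of which no gene passed the filter, to 72.3, 9.31 and 7.17. The hepatocyte list summed to 691, 306 and 308 CPM, but without 1 cell of the lowest tertile, called a doublet and left out after the data were seen, it summed to 311, 306 and 308 and none of its genes was called. The macrophage list stood at 29.7, 43.5 and 40.4 CPM. Their part in the changes along CD71 was not tested.

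The markers were unequal along this gradient. Myb stood at 215, 158 and 140 CPM (0.652-fold, 0.559 to 0.759) and Gm15915 at 366, 347 and 217 (0.593-fold, 0.526 to 0.668), and neither was called. Kit stood at 90.6, 65.6 and 71.7 CPM, Hdac7 at 59.5, 74.5 and 58.5 (0.984-fold, 0.753 to 1.29), and Gata1 at 145, 180 and 180 (1.25-fold, 1.06 to 1.47). Adult α-globin, as the sum of both copies, stood at 1939, 2108 and 2065 CPM.

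**Figure D4:**
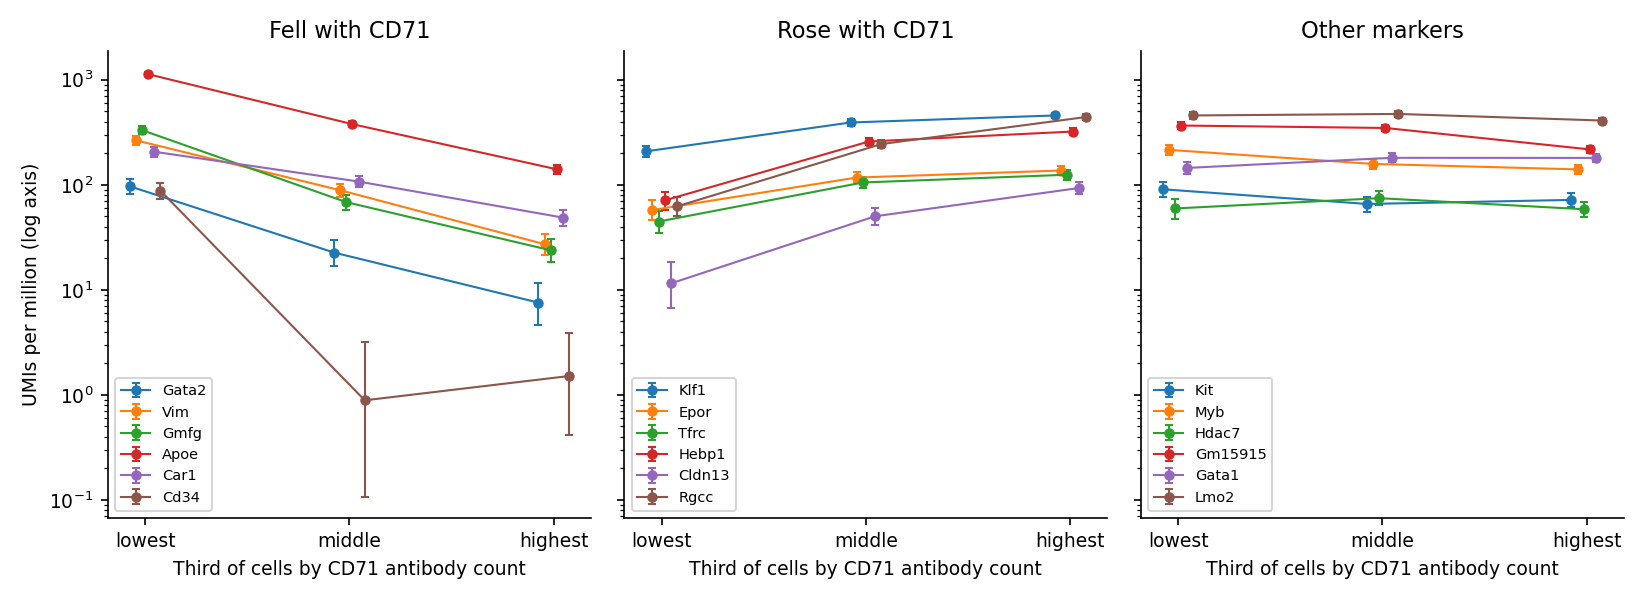
Levels (y axis, CPM, log axis) in tertiles of the 693 cells by CD71 antibody count (x axis, 231 cells each), with 95% counting intervals. Gata2 fell from 96.7 to 7.55 and Rgcc rose from 62.2 to 441, whereas Hdac7 and Lmo2 stayed nearly level.

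Depth moved with CD71, so cells with less and with more CD71 were also compared within tertiles of UMIs per cell, each split at its median CD71, an alternative chosen after seeing the data. Gata2 was lower in the cells with more CD71 in all 3 depth classes, at 13.3 against 127 CPM in the shallowest, 13.0 against 74.9 in the middle and 10.3 against 28.1 in the deepest. Vim and Apoe were likewise lower in each, with Vim at 45.6 against 204, 31.0 against 220 and 24.1 against 155 CPM. Klf1 was higher in each, but the ratio shrank from 2.62 (1.89 to 3.68) in the shallowest to 1.63 in the middle and 1.16 (1.05 to 1.28) in the deepest. The ratio shrank likewise for Hebp1, from 7.12 in the shallowest to 1.49 in the deepest class, for Rgcc from 6.10 to 2.30, and for Cldn13 from 6.90 to 2.07. Gata1 was higher with more CD71 in the shallowest class (1.60-fold, 1.09 to 2.40) and not in the deepest (0.932-fold, 0.798 to 1.09). Gm15915 was lower in the middle (0.681-fold) and deepest class (0.556-fold, 0.487 to 0.634) and showed no fall in the shallowest (1.07-fold, 0.835 to 1.38). The fall of Gata2 also shrank with depth, with ratios of 0.105, 0.174 and 0.367, whereas those of Vim were 0.224, 0.141 and 0.155. Intervals held 1 for Car1 in the shallowest class (0.611-fold, 0.364 to 1.01) and Myb in the deepest (0.899-fold, 0.752 to 1.08). In the deepest class Cd34 had 2 UMIs with less CD71 and 1 with more, too few to read a fall there.

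The cKit antibody gave almost no such gradient. Its tertiles covered counts of 200 to 339, 341 to 545 and 545 to 1736, and of 6629 genes 3 were higher (0.0453%) and 14 lower (0.211%) in the highest than in the lowest tertile. Kit stood at 77.2, 69.6 and 75.6 CPM (0.979-fold, 0.777 to 1.24), so that a median antibody count of 265 in one tertile and 704 in another went with Kit levels that could not be told apart. Cd44 stood at 58.8, 58.8 and 54.2 CPM. Orc3, a subunit of the origin recognition complex, Apoe and Sirt5, a mitochondrial sirtuin, were the 3 higher genes, with Apoe at 623 against 302 CPM. Orc3 and Sirt5 had under 50 UMIs in the lowest tertile, so nothing is read from their calls. Rpgrip1 fell most, from 349 to 155 to 80.0 CPM, and Actb, cytoplasmic β-actin, from 5098 to 2962 to 1973. Afp, Apoa1 and Rbp4 of the hepatocyte list were also among the 14 lower genes, and that list summed to 675, 315 and 303 CPM. The doublet cell left out of this list along CD71 was kept here, and its part was not tested. That cell held 567 of the 2528 hepatocyte UMIs of all 693 cells. Median depth moved with these tertiles too, at 5394, 8529 and 12271 UMIs, and its part in the result was not tested.

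The lowest CD71 tertile held cells with and without detected Cd34, and at this depth a cell with no UMI may still express the gene. Cd34 had a UMI in 60 of the 693 cells, 55 of them in the lowest CD71 tertile, 2 in the middle and 3 in the highest. Within the lowest tertile, the 55 cells with a Cd34 UMI (median 4074 UMIs) were set beside the 176 cells without one (median 6040.5 UMIs), a split made after their values were seen. Car1 stood at 7.64 CPM (2 UMIs) with Cd34 and 249 CPM without it (32.5-fold, 8.93 to 270.0). Gm15915 stood at 53.5 and 434 CPM (8.10-fold, 4.79 to 14.9), Klf1 at 34.4 and 246 (7.14-fold, 3.71 to 15.8) and Gata1 at 45.9 and 166 (3.62-fold, 2.03 to 7.12). Hmga2 stood at 344 CPM with Cd34 and 57.5 without it, Mycn at 203 and 29.6, Spi1 at 218 and 41.1, and Coro1a at 485 and 94.4. The granule gene Prtn3, which the rule limits but does not exclude, stood at 287 and 52.6 CPM.

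Gata2 stood at 65.0 CPM with Cd34 and 103 without it (without over with 1.59-fold, 0.956 to 2.82), Kit at 122 and 83.8, Myb at 176 and 223, and Hdac7 at 34.4 and 64.9, all with intervals of the ratio that held 1, so that no difference was detectable at this depth. Vim at 176 and 284 CPM and Apoe at 558 and 1252 were higher without Cd34, and Gmfg at 550 and 284 was higher with it.

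Over all 693 cells together, marker lists of other cell types had these sums, which for several lists were highest in the lowest CD71 tertile. The lymphoid list summed to 23.0 CPM with 6 of 18 genes at 0 and Satb1 its most abundant gene at 5.80, the macrophage list to 39.0 with Slc40a1, the iron exporter, at 23.2, and the stellate and mesenchymal list to 10.3. The megakaryocyte list summed to 207 CPM, led by Mef2c at 46.8, with Pf4 at 18.5 against 7098 in the CD41-led cells with high lineage counts and 18.1 in hepatocyte-rich cells. The endothelial list summed to 191 CPM, of which Egfl7 gave 166, while Pecam1, a defining endothelial gene, stood at 10.3. Srgn, the granule proteoglycan, gave 230 of the 241 CPM of the mast cell, basophil and eosinophil list. The granulocyte and monocyte list summed to 220 CPM, led by Coro1a at 45.4, and to 115 in hepatocyte-rich cells. This list holds Plac8, Mpo and Prtn3, which the rule itself limits, so its sum is partly set by the rule.

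Globin transcripts stood near the level of hepatocyte-rich cells, which should make none. Adult α-globin stood at 2051 CPM (2016 to 2086) against 2012 (1934 to 2091) in hepatocyte-rich cells, and adult β-globin at 6091 (6031 to 6152) against 6013 (5879 to 6149). Plac8-positive cells had less of both, at 1840 CPM (1730 to 1954) of α-globin and 5732 (5539 to 5931) of β-globin. The ratio of β to α was 2.97 (2.91 to 3.03) in the cKit-high CD71-low cells and 2.99 (2.86 to 3.13) in hepatocyte-rich cells. CD71-intermediate cells had 3719 CPM of α-globin and S1 cells 7523. Globin levels of the cKit-high CD71-low cells were thus not above those of hepatocyte-rich cells beyond counting error, but were above those of Plac8-positive cells.

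Among single cells thinned to 2000 UMIs, 3852 genes had at least 50 UMIs, and their median ratio of variance to mean was 1.04, where 1 is the value counting alone gives. Afp (9.83), Actb (8.43), Rbp4 (7.42), Tmsb4x (4.35), Alb (4.04), mt-Atp6 (3.85), Apoe (2.98), Malat1 (2.67), Eef1a1 (2.43) and mt-Co3 (2.41) had the 10 largest ratios. Afp, Rbp4 and Alb are hepatocyte genes, and a single cell with 4.99% hepatocyte UMIs held 22.4% of the 2528 hepatocyte UMIs of all 693 cells. No other cell exceeded 0.307%, and Scrublet's method called that cell a doublet. Actb had a median of 7 UMIs and reached 58, and Tmsb4x, which encodes the actin-binding thymosin β4, had a median of 1 and reached 21.

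**Figure D5:**
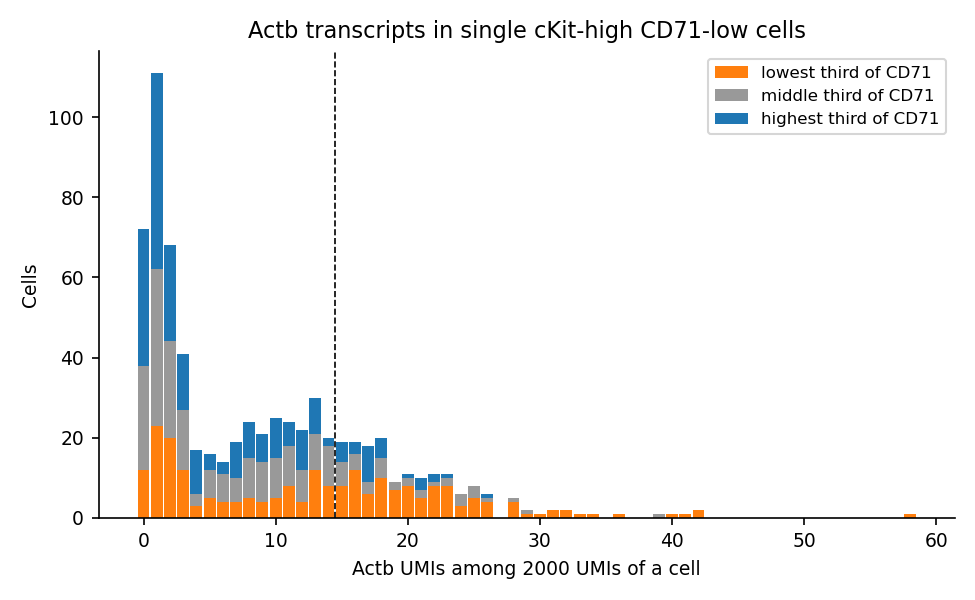
Number of cKit-high CD71-low cells (y axis) by Actb UMIs among 2000 UMIs of a cell (x axis), coloured by tertile of CD71 antibody count, with a dashed line below 15. Most cells lie at 0 to 3 UMIs or spread between 5 and 30, and 169 of 693 cells lie at or beyond 15.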

How the data were processed

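The authors mapped the cDNA reads to mm10 with Cell Ranger and deposited counts, as UMIs for transcripts and raw tallies for antibodies, in each cell. They name Seurat for their later analysis. The limits on genes and mitochondrial UMIs repeat theirs, whereas the antibody limits are not theirs, and the limit on CD71 was a count of 233. The authors also removed likely doublets with Scrublet, which was not done here. Members, gene lists and the rule for named genes were chosen with earlier results of these data known. Named were the 5 markers, antibody targets, the 10 highest and 10 lowest genes of each comparison, the 10 most variable genes, and the most abundant and called genes of each list. A further gene that meets this rule is kept in the counts but is not reported here by its values.

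Counts were summed over cells and scaled to CPM. Intervals were Poisson for levels and Clopper-Pearson for ratios and shares. They cover counting error only and not differences between animals or libraries. Cells were thinned with numpy 2.4.6, intervals taken from scipy 1.17.1, and doublets called with scanpy 1.11.5 at an expected rate of 6%, which marked 3 of the 693 cells and were kept. The calculation of ratios was checked on simulated counts with known fold changes, which is no test of these data. Gene positions come from RefSeq GRCm38.p6, the mm10 build.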

Additional observations from a re-analysis of the deposited data

How the results depend on the processing

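All counts of genes past the fold depended on the pseudocount. The counts are given here as higher and then lower in the cKit-high CD71-low cells. With 1 CPM they were 373 and 131 against CD71-intermediate, 740 and 549 against Plac8-positive and 178 and 101 against cKit-low cells, 170 and 344 along CD71 and 32 and 43 along cKit. With 50 CPM they were 19 and 10, 62 and 111, 5 and 12, 19 and 55, and 0 and 4. As a mean over cells they were 183 and 85 against CD71-intermediate cells, with 56 higher than in cKit-low cells and 0 higher along cKit. A filter of 10 UMIs gave 538 lower than in Plac8-positive cells and 341 lower along CD71. A filter of 200 UMIs gave 114 and 64 for these, 27 lower than in cKit-low cells, and 1 higher and 9 lower along cKit. Without quality limits 130 were lower than in cKit-low cells.

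Moving the gate changed counts as well. A cKit limit of 100 gave 51 higher and 71 lower than in cKit-low cells and 16 and 27 along cKit. A limit of 300 gave 63 lower than in CD71-intermediate cells, 15 higher than in cKit-low cells and 0 and 5 along cKit. A CD71 limit of 150 gave 179 and 71 against CD71-intermediate cells and 24 lower along cKit. A lineage limit of 60 gave 570 higher than in Plac8-positive cells and 56 higher along CD71, and stricter Pf4 and granule limits gave 779 higher than in Plac8-positive cells. Against CD71-intermediate cells with a cKit count of 200 or more, 15 genes were lower. With cells thinned to 2000 UMIs, 92 were lower than in CD71-intermediate and 133 lower than in Plac8-positive cells, 50 were higher than in cKit-low cells, 99 were lower along CD71, and 9 and 24 were called along cKit. The gate itself held 508 to 887 cells under these limits.

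Added after the data were seen, leaving out cells with a Cd34 UMI gave 52 higher and 134 lower along CD71 and, by construction, turned Cd34 against CD71-intermediate cells to a log2 ratio of -0.0909. Leaving out Actb-rich cells gave 51 higher than in cKit-low cells and 6 higher along cKit. Without thinning, the share of cells with a UMI was 44.6% for Kit, 68.4% for Myb, 18.3% for Gata2, 39.8% for Hdac7 and 71.1% for Gm15915. Apart from Cd34, no called log2 ratio of the 9 genes followed (the 5 markers, Klf1, Vim, Apoe and Cd34) changed sign under the 19 alternatives. No paired analysis was possible because the result comes from 1 library and no test. The Plac8-positive levels rest on 88 cells, which limits their precision.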

Other observations

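Values in this part were chosen after they were seen. The 169 cells with 15 or more Actb UMIs of 2000 made up 24.4% of the cKit-high CD71-low cells. They had a median of 4318 UMIs, 1886 genes, 5.27% mitochondrial UMIs, a CD71 count of 33 and a cKit count of 327. The other 524 cells had 10684 UMIs, 3145 genes, 4.07% mitochondrial UMIs, a CD71 count of 108 and a cKit count of 477.5. The Actb-rich cells made up 44.2% of the lowest CD71 tertile and 13.0% of the highest, and 54.5% of the shallowest tertile by UMIs and 2.60% of the deepest. In CD71-intermediate cells the share was 14.3%. The part of depth in these shares was not tested.
Cd34 (82.8 against 21.0 CPM of thinned UMIs), Coro1a, Alox5ap, Hmga2 and Gmfg were among the 10 genes highest in the Actb-rich cells, and Mrpl47, Slc38a5 and Ndufs1 among the 10 lowest.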
